A study of Mus musculus with 8 samples.

Results

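The H19-Igf2 and Dlk1-Meg3 imprinted domains were read from 8 lists of Rad21 ChIP-seq peaks. Members were all peaks overlapping either of 2 windows of 300 kb in mm9: chromosome 7, 149650000 to 149950000, and chromosome 12, 110600000 to 110900000. Peaks of all lists that shared at least 1 bp were joined into regions. The H19-Igf2 window held 21 regions made of 86 peaks, and the Dlk1-Meg3 window held 0, of 64772 regions and 199072 peaks in all. Gene positions in mm9 were approximate: H19 at 149761000 to 149764000, Igf2 at 149837000 to 149853000, Dlk1 near 110691000 and Meg3 near 110780000.

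Rad21 is a subunit of cohesin, the ring that extrudes chromatin loops and stops at bound CTCF. The libraries came from CH12F3, a mouse B lymphoma line, after stimulation with anti-CD40, IL4 and TGF-β for 3 days. All lines were AID-/-, without the enzyme that initiates class switching, and carried edits at Igh, on the distal part of chromosome 12. Each of 4 genotypes had 2 libraries. FS_Ca lines had lost the stretch from Cγ3 to Iα but kept all of the Sγ3 and Sα switch regions, and FS_Ia lines had lost Cγ3 to Cα and likewise kept both switch regions whole. PS_Ca and PS_Ia lines had lost Sγ3 to Sα and kept only parts of both. Ca lines came from cells with a non-coding Igh allele deleted between VH and the 3' CTCF-binding elements, and Ia lines from αInv cells. The labels do not say whether the 2 libraries of a genotype were separate cultures, so p-values measure the spread between libraries, which may be technical. The labels place no edit at either imprinted domain.

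In an imprinted domain, genes are expressed from 1 parental allele. H19, a long non-coding RNA, is expressed from the maternal allele, and Igf2, a fetal growth factor, from the paternal allele. Between them, just upstream of H19, lies an imprinting control region whose unmethylated maternal copy binds CTCF and insulates Igf2 from enhancers on the far side of H19; cohesin is known to gather there. Dlk1, a transmembrane protein related to Notch ligands, is expressed from the paternal allele. Meg3, a long non-coding RNA, is expressed from the maternal allele, and a control region lies between them. Peak lists do not separate the parental alleles, and no RNA was measured here.

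The lists held 11288 to 47461 peaks. The fold value of each peak gave its summit height in whole fragments, to within 0.001 fragments, over an expected background of 0.223 to 0.862 fragments per position. The lowest summit called in a list was 3 to 5 fragments high, so a site with fewer fragments is not called and is not shown to be absent. Intervals on fragments are exact 95% Poisson intervals and cover counting error only.

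Promoter sequences were taken from RefSeq for the 3 members that have an entry: Igf2 with 4 starts, Dlk1 with 1 and Meg3 with 2. They are shown because these genes lie where no list had a peak. Each line gives the 250 bases before a start, 5′ to 3′, with capitals for matches on either strand to CCCTC, the letters CTCF is named after, or GGNGGCAG, a core found in many CTCF sites. The Igf2 start with the most matches was chosen, after the matches were seen, and lies at chr7:142658805-142659054 on the minus strand. Dlk1 is at chr12:109452573-109452822 and the first Meg3 start at chr12:109540746-109540995, both on the plus strand. These coordinates are GRCm38.p6 and cannot be set beside the mm9 positions.
Igf2: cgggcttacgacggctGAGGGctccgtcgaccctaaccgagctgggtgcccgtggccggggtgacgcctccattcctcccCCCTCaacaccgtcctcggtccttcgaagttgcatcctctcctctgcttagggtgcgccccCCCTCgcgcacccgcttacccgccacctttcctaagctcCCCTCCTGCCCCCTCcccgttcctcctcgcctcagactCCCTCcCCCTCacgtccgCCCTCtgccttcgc
Dlk1: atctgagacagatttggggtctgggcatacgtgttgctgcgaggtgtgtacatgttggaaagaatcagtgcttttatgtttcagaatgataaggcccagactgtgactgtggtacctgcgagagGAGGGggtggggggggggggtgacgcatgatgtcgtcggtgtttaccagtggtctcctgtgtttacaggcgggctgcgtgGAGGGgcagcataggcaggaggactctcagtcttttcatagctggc
Meg3: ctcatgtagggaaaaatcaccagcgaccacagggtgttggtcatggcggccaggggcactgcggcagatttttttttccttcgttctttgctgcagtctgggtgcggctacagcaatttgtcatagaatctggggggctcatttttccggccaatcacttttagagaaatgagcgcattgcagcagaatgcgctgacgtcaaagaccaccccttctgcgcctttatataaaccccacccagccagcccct

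The Igf2 stretch held 8 matches to CCCTC and 1 to GGNGGCAG, which overlap in part. The other 3 Igf2 starts held 1, 0 and 6 matches to CCCTC and none to GGNGGCAG. Dlk1 held 2 matches to CCCTC, the Meg3 start shown 0 and the other Meg3 start 1, and none of these held GGNGGCAG. As the starts shown were not chosen alike, they do not compare the genes. Of 32851 RefSeq promoter stretches of this length, 60.5% held CCCTC and 9.93% held GGNGGCAG. A match is a description of the sequence and not a binding site.

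The 2 domains differed in every library. The H19-Igf2 window held 7 and 17 peaks in FS_Ca replicates 1 and 2, 7 and 14 in FS_Ia, 10 and 4 in PS_Ca, and 9 and 18 in PS_Ia. The Dlk1-Meg3 window, of the same length, held 0 peaks in each of the 8. The difference was 10.75 ± 5.06 peaks (mean ± SD, n = 8) and was positive in 8 of 8 libraries. Since 1 window was at 0 in every list, the exact two-sided sign-flip p of 0.00781 is at its minimum for 8 libraries whatever the H19-Igf2 numbers, and adds nothing to that count. The numbers of the 2 windows did not overlap, the lowest H19-Igf2 value being the 4 peaks of PS_Ca replicate 2, the shortest list.

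**Figure D1:**
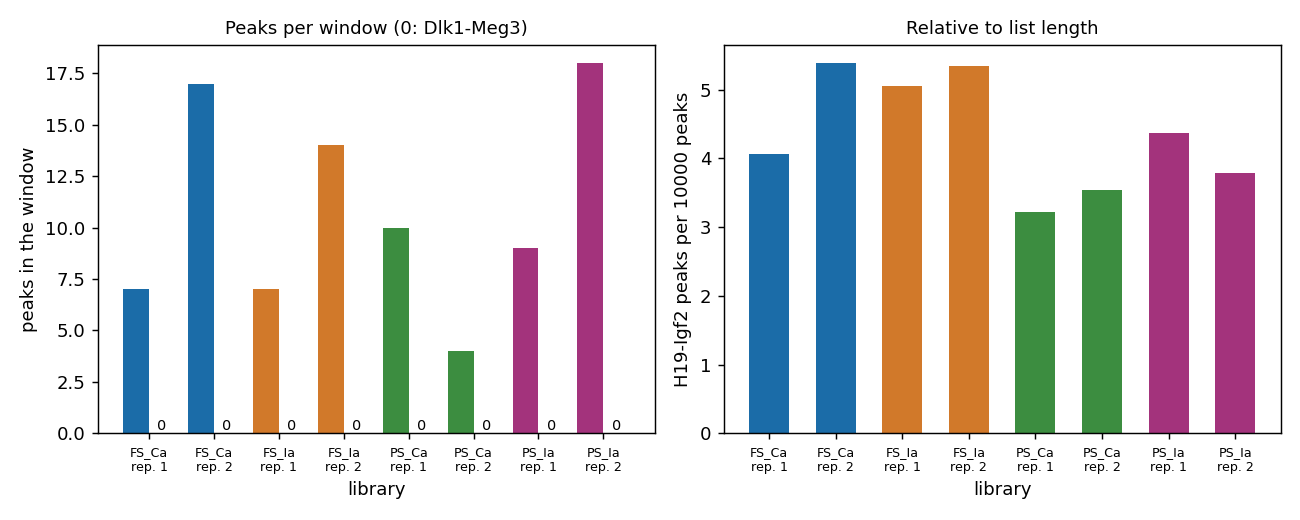
Peaks in the H19-Igf2 and Dlk1-Meg3 windows in each library (left) and H19-Igf2 peaks per 10000 peaks of the list (right). Bars are single libraries, coloured by genotype, and the y axes start at 0. The H19-Igf2 window holds 4 to 18 peaks and the Dlk1-Meg3 window 0 in every library.

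Set against the rest of the genome, a window with no peak was common and a window as full as H19-Igf2 was not. Of 8784 consecutive windows of 300 kb on chromosomes 1 to 19 and X, 29.8% held no peak in any library. At least 21 regions were found in 10.4% of them, at least 4 regions of all 8 libraries in 4.33%, and at least 8 regions of 4 or more libraries in 4.97%. The median window held 3 regions. These shares describe where the 2 domains stand and are no test of them. The windows ran from the first base of each chromosome towards its last region. Sequence that reads cannot cover was not left out, so the empty windows include any such stretch.

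Of the 21 H19-Igf2 regions, 4 (19.05%) held a peak in all 8 libraries, against 10.4% of all regions. Another 4 were found in 4 to 7 libraries, which brought those of at least 4 libraries to 8 (38.1%), against 28.3% of all regions. Regions of 1 library numbered 11 (52.4%), against 52.6%, and 5 of these came from PS_Ia replicate 2 and 4 from FS_Ca replicate 2, the longest lists. The last 2 regions were found in 3 libraries. With −log10 q of at least 5, the regions of all 8 libraries numbered 1, and in lists held to the 11288 strongest peaks 2. Built from summits with 100 bp on each side, they numbered 3. All 8 regions found in at least 4 libraries were present in the 4 longest lists: FS_Ca replicate 2, FS_Ia replicate 2, PS_Ca replicate 1 and PS_Ia replicate 2.

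**Figure D2:**
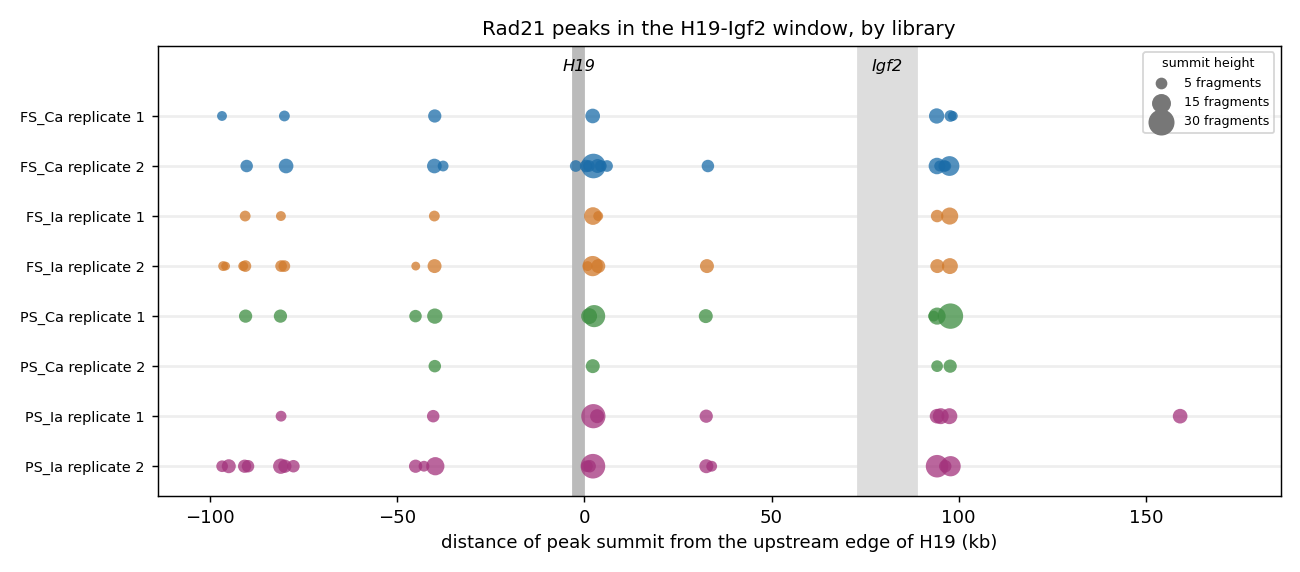
Summits of the 86 peaks of the H19-Igf2 window by library, at their distance from the upstream edge of H19 (x axis, kb; positive values lie towards Igf2). Dot area follows summit height in fragments, colours mark genotypes and the grey bands are H19 and Igf2. Every library has peaks just upstream of H19, beyond Igf2 and on the far side of H19, and none has a peak in Igf2.

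The region nearest to H19 in all 8 libraries lay at chromosome 7, 149765739 to 149768844, with its median summit 2.28 kb from the upstream edge of H19, where the control region is known to lie. Its fold over background was 8.61 and 18.5 in FS_Ca replicates 1 and 2, 13.2 and 18.0 in FS_Ia, 14.7 and 6.93 in PS_Ca, and 19.1 and 17.2 in PS_Ia. PS_Ca replicate 2 was the lowest and FS_Ca replicate 1 the next. The ranges of the genotypes overlapped, except that both PS_Ia values lay above both PS_Ca values. A fold also depends on the background of its list, so ranks within a list are given next. Its summit was 31 fragments high in FS_Ca replicate 2 (95% interval 21.1 to 44.0) and 10 in PS_Ca replicate 2 (4.80 to 18.4).

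Within its own list, this peak ranked 4438 of 17212 and 523 of 31550 in FS_Ca replicates 1 and 2, and 1000 of 13840 and 1337 of 26157 in FS_Ia. In PS_Ca it ranked 2302 of 30982 and 4655 of 11288, and in PS_Ia 396 of 20582 and 920 of 47461. In 6 libraries it was thus among the strongest 7.43% of the list, and in FS_Ca replicate 1 and PS_Ca replicate 2 it stood at 25.8% and 41.2%. The mean percentile rank was 11.5 (0 is the strongest peak of a list), and 24.3% of the 6747 regions found in all 8 libraries had a better mean.

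The summit was placed closely and had a shoulder. Over the 8 libraries it fell between 149766205 and 149766607, a spread of 402 bp. In 4 libraries a separate, lower peak followed farther from H19, with summits 3.51 kb (FS_Ca replicate 2), 3.69 kb (FS_Ia replicate 1), 3.71 kb (FS_Ia replicate 2) and 3.40 kb (PS_Ia replicate 1) upstream and folds of 6.35, 4.64, 8.99 and 6.78. In PS_Ia replicate 2, 1 peak of 3086 bp, and in PS_Ca replicate 1, 1 of 1983 bp, ran on beyond the main summit. FS_Ca replicate 1 and PS_Ca replicate 2 had the narrower main peak alone, of 1126 and 371 bp. FS_Ca replicate 2 also had a further peak at 4.41 kb with a fold of 4.62.

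Nearer to H19, the region at 149764162 to 149765511 had its median summit 1.07 kb upstream and was found in the 4 longest lists only. Its folds were 5.20 in FS_Ca replicate 2, 4.91 in FS_Ia replicate 2, 7.90 in PS_Ca replicate 1 and 4.83 in PS_Ia replicate 2, with summits of 5 to 13 fragments. These summits spread over 951 bp, from 149764453 in FS_Ca replicate 2 to 149765404 in PS_Ia replicate 2, so the median is a midpoint between libraries. FS_Ca replicate 2 and PS_Ia replicate 2 each had 2 separate peaks in the region, and the higher is given. Inside H19 there was 1 peak, at 149761572 to 149761833 in FS_Ca replicate 2 (fold 4.62, 7 fragments). The other 7 lists had no peak within H19.

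Igf2 itself held no peak in any list. It lay within a stretch of 59.0 kb, from 149798102 to 149857101, without a peak in the 8 libraries. Igf2 is transcribed on the minus strand per RefSeq, so its upstream side faces higher positions, where the RefSeq gene order places Ins2, the insulin gene next to Igf2. On that side lay a pair of regions found in all 8 libraries, at 149857687 to 149859432 and 149860280 to 149863445, with median summits 5.25 and 8.70 kb beyond the edge of Igf2 and 3.45 kb apart.

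The closer of the pair had folds of 9.33 and 8.67 in FS_Ca replicates 1 and 2, 6.96 and 8.99 in FS_Ia, 9.03 and 5.04 in PS_Ca, and 8.63 and 14.5 in PS_Ia. PS_Ia replicate 2 was the highest at 26 fragments and PS_Ca replicate 2 the lowest at 7, and the other 6 libraries lay between 6.96 and 9.33. The mean percentile rank of the closer region was 30.8. Its value in PS_Ia replicate 1 came from a second peak, with the summit at 149859219. The other libraries had theirs between 149858126 and 149858296. In that span PS_Ia replicate 1 had a lower peak at 149858232, with a fold of 7.40 and a percentile rank of 39.8 instead of 29.9. The mean rank and the comparison of pairs used the higher peak. The farther of the pair had folds of 5.74 and 12.1 in FS_Ca, 12.4 and 11.4 in FS_Ia, 19.2 and 6.30 in PS_Ca, and 8.63 and 11.8 in PS_Ia. It was the tallest of the whole window in PS_Ca replicate 1, at 33 fragments (22.7 to 46.3), and its mean percentile rank was 22.6. PS_Ca replicate 1 was the highest and FS_Ca replicate 1 the lowest, with PS_Ca replicate 2 next to it, so the genotypes overlapped.

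On the downstream side of H19, where RefSeq places Nctc1 and Mrpl23 and where the known enhancers of the domain lie, 1 region was found in all 8 libraries, at 149723193 to 149724843, 37.0 kb from H19. Its folds were 7.17 and 6.93 in FS_Ca replicates 1 and 2, 5.42 and 8.99 in FS_Ia, 7.34 and 5.67 in PS_Ca, and 5.55 and 9.67 in PS_Ia, with summits of 6 to 17 fragments. It was the weakest of the 4 regions shared by all libraries, with a mean percentile rank of 42.1. Among the 6747 regions of all 8 libraries, 93.2% had a better mean rank.

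Farther out, the region at 149682473 to 149684550 had its median summit 78.05 kb downstream of H19. It held a peak in 7 libraries, with folds of 4.31 to 6.98, and was missing from PS_Ca replicate 2. Its summits spread over 1508 bp, and wide peaks in FS_Ca replicate 2 and PS_Ca replicate 1 joined narrower ones. The peak of FS_Ca replicate 1, at 149683569 to 149683963, did not overlap those of FS_Ia replicate 1 (149682852 to 149683110) or PS_Ia replicate 1 (149682855 to 149683128). The 7 libraries thus shared the joined region and not a single summit. The region at 149672649 to 149673912, 87.6 kb from H19, was found in 5 libraries with folds of 5.20 to 6.54. Between H19 and Igf2, the region at 149796222 to 149797256 was also found in 5 libraries, 32.6 kb upstream of H19 and 40.4 kb from Igf2, with folds of 5.20 to 8.99 and summits of 8 to 10 fragments. All these were low summits, and the lists that lacked them were among the 4 shortest. Beyond the pair upstream of Igf2, the window held 1 more peak, at 149922666 to 149923373 in PS_Ia replicate 1 (fold 7.40).

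**Figure D3:**
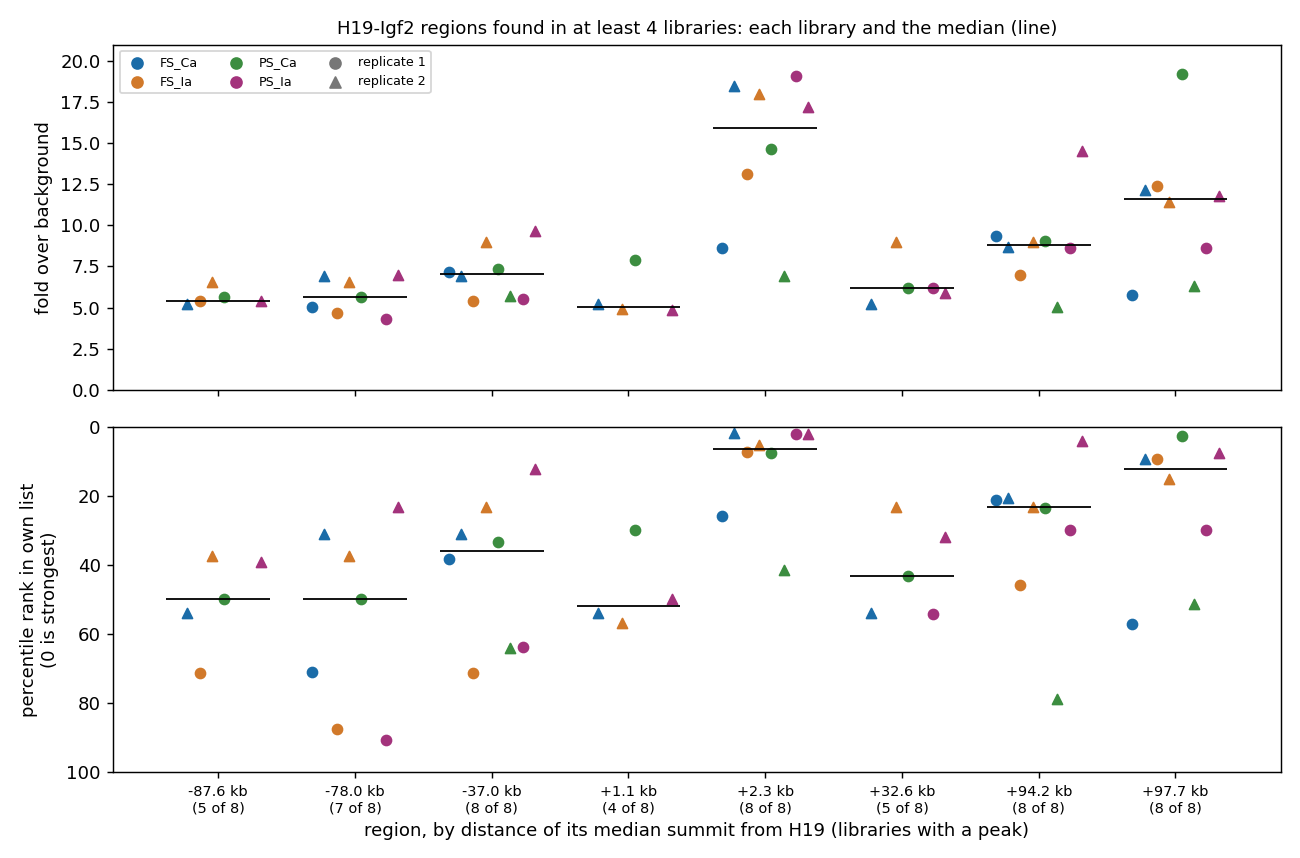
Fold over background (top) and percentile rank within the library's own list (bottom, 0 is the strongest) at the 8 H19-Igf2 regions found in at least 4 libraries, ordered by distance from H19 in kb. Each point is 1 library, coloured by genotype, with circles for replicate 1 and triangles for replicate 2, and lines are medians over the libraries with a peak. The region 2.28 kb upstream of H19 has the best median rank.

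The 4 regions shared by all libraries were compared with each other by percentile rank within each library, in 6 pairs. Heights move in whole fragments and tied peaks share the better rank, so ranks of low summits are coarse. In FS_Ia replicate 1, summits of 5 and 6 fragments stood at 87.4% and 71.1% of the list. The region upstream of H19 ranked better than the one downstream of H19 in 8 of 8 libraries, by 30.5 points on average (exact two-sided sign-flip test, p = 0.00781, adjusted p = 0.0469). It ranked better than the closer region beyond Igf2 in 7 of 8 libraries, with a mean difference of -19.2 points, and than the farther one in 7 of 8, with a mean difference of -11.1 (exact sign-flip test, p = 0.0234 and adjusted p = 0.0469 for each). The exceptions were FS_Ca replicate 1, where the closer region beyond Igf2 was the taller, and PS_Ca replicate 1, where the farther one was. The other 3 pairs did not pass (exact sign-flip test, adjusted p = 0.0820, 0.0938 and 0.344). With 7 libraries the 3 passing differences kept their sign, but most lost the call: leaving out FS_Ca replicate 2, FS_Ia replicate 1, FS_Ia replicate 2, PS_Ca replicate 2, PS_Ia replicate 1 or PS_Ia replicate 2 gave adjusted p = 0.0703 to 0.0938 for all 3 (exact sign-flip test). Without FS_Ca replicate 1 the farther region beyond Igf2 lost its call (exact sign-flip test, adjusted p = 0.0703), and without PS_Ca replicate 1 the closer one did (adjusted p = 0.0938, exact sign-flip test). The smallest p that 7 libraries allow is 0.0156 before adjustment.

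The Dlk1-Meg3 window lay inside a longer stretch without a peak. No list had a peak between positions 110309771 and 111606936 of chromosome 12, which is 1.30 Mb and takes in both genes. Within single lists the stretch was 1.30 Mb (FS_Ia replicate 2 and PS_Ca replicate 1) to 1.47 Mb (PS_Ca replicate 2) long. The nearest peak to Dlk1 in any list was 381 kb away, in PS_Ca replicate 1, with a fold of 6.77. On the other side, the nearest to Meg3 was 827 kb away, in FS_Ia replicate 2, with a fold of 4.91 and 5 fragments. The nearest region of any library lay 4.31 kb from Igf2 and within H19. H19 and Igf2 are 73 kb apart and Dlk1 and Meg3 89 kb.

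Gaps of this length were few in number but made up a larger share of the genome's span. Of 64751 gaps between neighbouring regions, 213 (0.329%) were at least as long, 11 of them on chromosome 12, and the median gap was 4.35 kb. Together these 213 gaps made up 18.9% of the span between the first and last peaks of the chromosomes. The lists hold no coverage outside peaks, so a stretch with reads but no peak and a stretch without reads were not told apart.

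**Figure D4:**
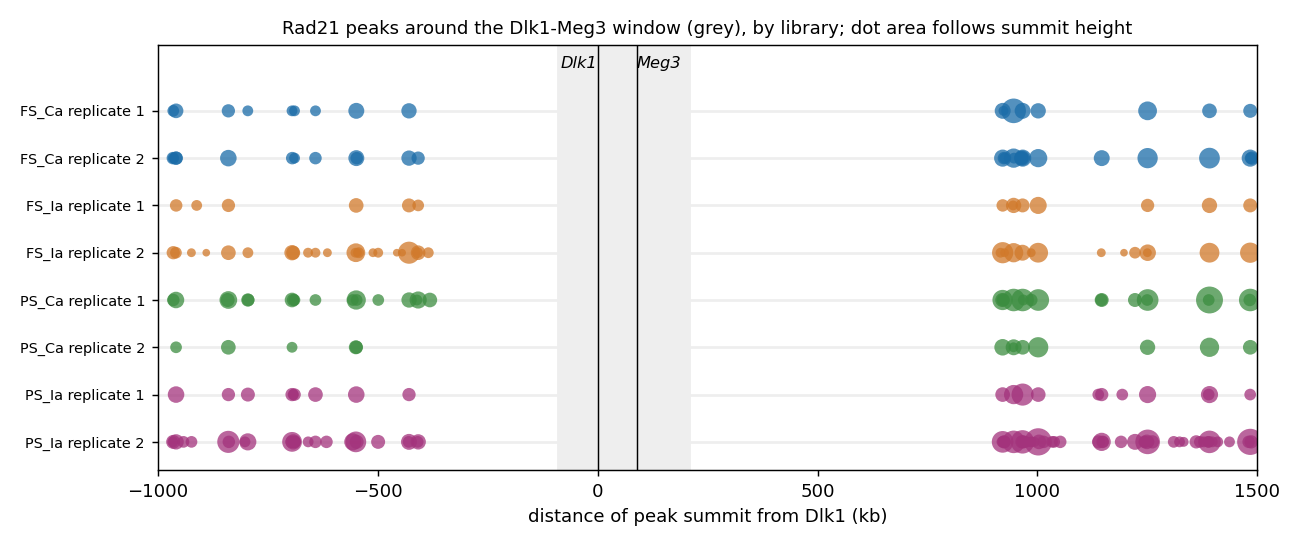
Rad21 peaks on chromosome 12 around Dlk1, by library (x axis, distance of the summit from Dlk1 in kb). Dot area follows summit height, colours mark genotypes, grey is the 300 kb window and black lines are Dlk1 and Meg3. All 8 libraries have peaks on both sides and none between -381 and 916 kb.

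The flanks of the gap carried regions found in every library. Before Dlk1, the nearest region of all 8 libraries was at 110140084 to 110142883, 549 kb away, with folds of 6.93 to 15.5 (median 9.66). After Meg3 it was at 111611088 to 111612724, 832 kb away, with folds of 6.96 to 19.6 (median 9.75). Their mean percentile ranks were 19.96 and 19.8, between the 11.5 of the region upstream of H19 and the 22.6 of the farther region beyond Igf2. Summits of the second fell within 319 bp of each other over the 8 libraries. Those of the first spread over 1125 bp, from 110141314 to 110142439. In FS_Ia replicate 2, PS_Ca replicate 2 and PS_Ia replicate 2 its highest summit lay at -549.686 to -549.589 kb from Dlk1. The other libraries had theirs at -548.87 to -548.561 kb, where PS_Ca replicate 2 had a second, lower peak. The first was thus shared as a joined region and not as a single summit. Closer to Dlk1, every library except PS_Ca replicate 2 had a peak with its summit about 429 kb away, with folds of 6.16 to 21.3. The highest of these was in FS_Ia replicate 2, at 25 fragments, and the next was FS_Ca replicate 1 with a fold of 9.33. A region closer still, at 110282422 to 110283636 and 408 kb from Dlk1, was found in 5 libraries with folds of 5.78 to 9.81.

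Presence of each H19-Igf2 region was compared between Ia and Ca libraries, which differ in the parental cells and, among FS lines, also in the Igh deletion, and between PS and FS libraries, which differ in the deletion and in how much of the switch regions was kept. Of the 21 regions, 0 passed for either factor (Fisher's exact test over all 64772 regions, two-sided, Benjamini-Hochberg adjusted), against 0% of all regions for either factor. At an unadjusted p under 0.05 the count was also 0 of 21 for both, against 0.0479% of all regions for either factor, and the lowest p in the window was 1. The smallest p that 4 against 4 libraries allow is 0.0286, reached only by a region in all 4 libraries of one kind and none of the other. With 31 of 64772 regions at that p for either factor, no region could pass after adjustment, so the count of 0 says nothing about these regions.

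The number of H19-Igf2 peaks did not differ beyond the spread between libraries. The mean number was 12 ± 4.97 for the Ia libraries and 9.5 ± 5.57 for the Ca libraries (SD, n = 4 each). Ia minus Ca was 2.5 (two-sided exact permutation over libraries, p = 0.6). Within sets of libraries whose peak names share a prefix, Ia minus Ca was -1.5 in the 4 FS libraries, -1 in the PS replicate 1 libraries and 14 in the PS replicate 2 libraries. Pooled over the sets, it was 0.5 without PS_Ia replicate 2, 0.667 without PS_Ca replicate 2, 4.17 without FS_Ia replicate 1 and 5 without FS_Ca replicate 2, and 0.75 in lists held to the strongest peaks. Ia minus Ca was -1.5 in FS and 6.5 in PS libraries, and these differed by 8 (permutation of Ia and Ca within FS and PS, exact p = 0.333). For the switch regions the means were 10.25 ± 5.80 in PS and 11.25 ± 5.06 in FS, and PS minus FS was -1 (exact permutation p = 0.857). Both contrasts had an adjusted p of 1 over the 4 contrasts in the 2 windows (exact permutation). Without PS_Ca replicate 2, PS minus FS was 1.08, and without FS_Ca replicate 2 0.917. Each set was either FS or PS throughout, so the sets and the length of the switch regions cannot be told apart. In the Dlk1-Meg3 window every library had 0 peaks and there was no difference to test.

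Per 10000 peaks of its list, the window held 4.07 and 5.39 peaks in FS_Ca replicates 1 and 2, 5.06 and 5.35 in FS_Ia, 3.23 and 3.54 in PS_Ca, and 4.37 and 3.79 in PS_Ia. FS libraries lay above PS libraries except for FS_Ca replicate 1, which was below PS_Ia replicate 1. The means were 4.97 ± 0.618 in FS and 3.73 ± 0.484 in PS (SD, n = 4 each), and PS minus FS was -1.23 (exact permutation p = 0.0571; adjusted over 2 contrasts, p = 0.114). Without FS_Ca replicate 1 it was -1.53 (exact permutation p = 0.0286, unadjusted). It had the other sign in lists held to the strongest peaks, at 0.221, and at the stricter threshold, at 0.136. Ia minus Ca was 0.587 (exact permutation p = 0.371 and the same after adjustment), and 0.477, 1.145 and 0.249 within the FS, PS replicate 1 and PS replicate 2 sets. It was 0.311 without PS_Ca replicate 1, 0.351 without FS_Ia replicate 2 and 1.03 without FS_Ca replicate 2, and 1.13 at the stricter threshold.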

How the data were processed

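Per the labels' protocols, cells were fixed with formaldehyde, Rad21-bound chromatin was pulled down after sonication, and Tn5 tagmentation on the beads was followed by paired-end sequencing. MACS2 2.2.7.1, deepTools 3.5.1, Bowtie2 2.4.4, SAMtools 1.15.1 and the mm9 build come from the submitters' processing notes, without settings. No source used here says whether a control library was used. Within each list the folds of all peaks fitted the same background value, so they carry no peak-by-peak correction for local background. Each library has a deposited list of its own, so peaks were called per library. The deposited values are the authors' score, the summit's fold (a ratio to expected background), −log10 p and −log10 q; they were used to describe and rank peaks within a list, and ranks are by fold.

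Heights were computed as fold times (background + 1), less 1, with the background from the step between fold values. Where a library had several peaks in a region, its fold, summit and rank there are those of the peak with the highest fold. No mm9 annotation was used; gene positions are approximate, and genes were named by order only from RefSeq (GRCm38.p6). Members and lists were chosen with earlier results of these data known. Named were the 4 genes with their nearest regions and all regions of at least 4 libraries. Tests were exact permutations over libraries and Fisher's exact test over all regions. Peaks per 10000, the prefix sets and the pairs of regions were added after seeing the data. Computation used scipy 1.17.1, pandas 2.3.3 and numpy 2.4.6 under Python 3.11.15, with matplotlib 3.10.9 for plots, and was tested on simulated data.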

Additional observations from a re-analysis of the deposited data

How the results depend on the processing

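Low summits limit the count of weak regions: the H19-Igf2 window held 21 regions, 10 with −log10 q of at least 5, 8 with each list held to its 11288 strongest peaks, and 38 when built from summits with 100 bp on each side. Regions of all 8 libraries went from 4 to 1 and 2 under the first 2 of these, and to 3 when built from summits. The Dlk1-Meg3 window held 0 regions under every alternative run. These runs only dropped or rejoined deposited peaks, so the 0 was fixed in advance and shows no stability. The difference between the windows was 9.71 to 11.7 peaks with each library left out in turn; its p is fixed at the minimum by the window at 0 and shows no stability. Ia minus Ca was 0.5 to 5 peaks, and 0.311 to 1.03 per 10000 peaks, with libraries left out. PS minus FS in H19-Igf2 peaks was -1, but 0.75 at the stricter threshold and 0.25 in lists of equal size, and -3.58 to 1.08 with libraries left out. Per 10000 peaks it was -1.23, but 0.136 and 0.221 under those 2, and -1.53 to -1.06 with libraries left out. For this contrast the unadjusted p was 0.0286 without FS_Ca replicate 1 and up to 0.0857 with other libraries left out (exact permutation). These p-values were not adjusted over the 2 contrasts and make no call. With libraries left out, the rank differences were 25.8 to 33.4 (downstream minus upstream of H19), -22.6 to -16.5 (upstream of H19 minus closer region beyond Igf2) and -13.4 to -8.25 (minus farther region); the smaller number of libraries sets the smallest p. With the replicate number as a block, the Ia to Ca difference stayed at 2.5 (p = 0.778 by exact permutation) and the PS to FS one at -1 (p = 1, exact permutation); per 10000 peaks they were 0.587 and -1.23 (p = 0.333 and 0.111, exact permutation), and no call changed. Deviations of same-numbered libraries correlated at -0.226 to 0.402 over the 6 pairs of genotypes, and the labels do not say that a number marks a shared culture or day.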
